A study of Mus musculus with 6 samples.

Results

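The 9 genes described here (*Gatm*, *Gnmt*, *Ggh*, *Phgdh*, *Psat1*, *Cbs*, *Cth*, *Bcat1* and *Slc39a5*) encode enzymes of amino acid, methyl group and folate metabolism and a zinc transporter, out of 18194 genes measured on the arrays. They were chosen by name, with the results of this comparison already known, and every probe set annotated to only 1 of them was used, which gave 16 probe sets. The values of the 9 genes between the groups are therefore given as a description, without a test. RNA came from whole pancreases of C57BL/6 mouse embryos at e15.5, from 3 Jarid2Δpanc samples (*Pdx1-Cre;Jarid2* flox/flox, labelled pancreas-specific Jarid2 knockout, KO) and 3 Jarid2WT samples (labelled wild-type controls). *Pdx1-Cre* deletes in pancreatic progenitors, and the study describes the recombination as restricted to the epithelium and mosaic, so that unrecombined epithelium and all mesenchyme were part of each Jarid2Δpanc sample. The Cre status of the controls is not given in the sources used here. Signals are linear MAS5 units, scaled by the authors to the same trimmed mean of 150 on each array, and fold changes are log2 of Jarid2Δpanc over Jarid2WT after values under 16 were set to 16.

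As background, serine is made from a glycolytic intermediate and is split to glycine and a folate-bound carbon unit, and these carbon units feed methionine, purines and the methyl donor S-adenosylmethionine. Acinar cells of the pancreas make and secrete digestive enzymes at a high rate, which draws on amino acids, and they are known for high levels of the glycine-consuming enzymes *Gatm* and *Gnmt*. Serine also condenses with homocysteine on the route to cysteine, while folates are held in cells as polyglutamates whose tails are removed by hydrolysis.

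The transcripts with the most negative fold changes were *Ggh*, *Gatm* and *Gnmt*, at 45.5%, 38.6% and 37.0% below the Jarid2WT mean. Their 3 Jarid2Δpanc samples each lay under all 3 Jarid2WT samples. *Cbs* and *Phgdh*, the first enzymes of cysteine and of serine synthesis, were also lower in every Jarid2Δpanc sample than in any control, by 16.9% and 9.78% of the mean. *Psat1*, *Cth* and the dim *Slc39a5* overlapped between the groups with lower Jarid2Δpanc means, and *Bcat1* overlapped with no lower mean. In all, 8 of the 9 fold changes were negative with a median of -0.26, 5 genes had all Jarid2Δpanc samples below all Jarid2WT samples and 0 had them above. Over all 18194 genes the median was 0, and the groups were separated in this way downwards for 5.64% and upwards for 5.71%. Nothing is read from the count of 5, since the genes were selected on this comparison. With limma and Benjamini-Hochberg adjustment over all genes, no gene passed an adjusted p of 0.05, so that the share called was 0 in the lower and 0 in the higher direction, with 0 of the 9 genes among them. At an unadjusted p of 0.05, 4.44% of all genes (807) were lower and 4.37% (795) higher.

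**Figure D1:**
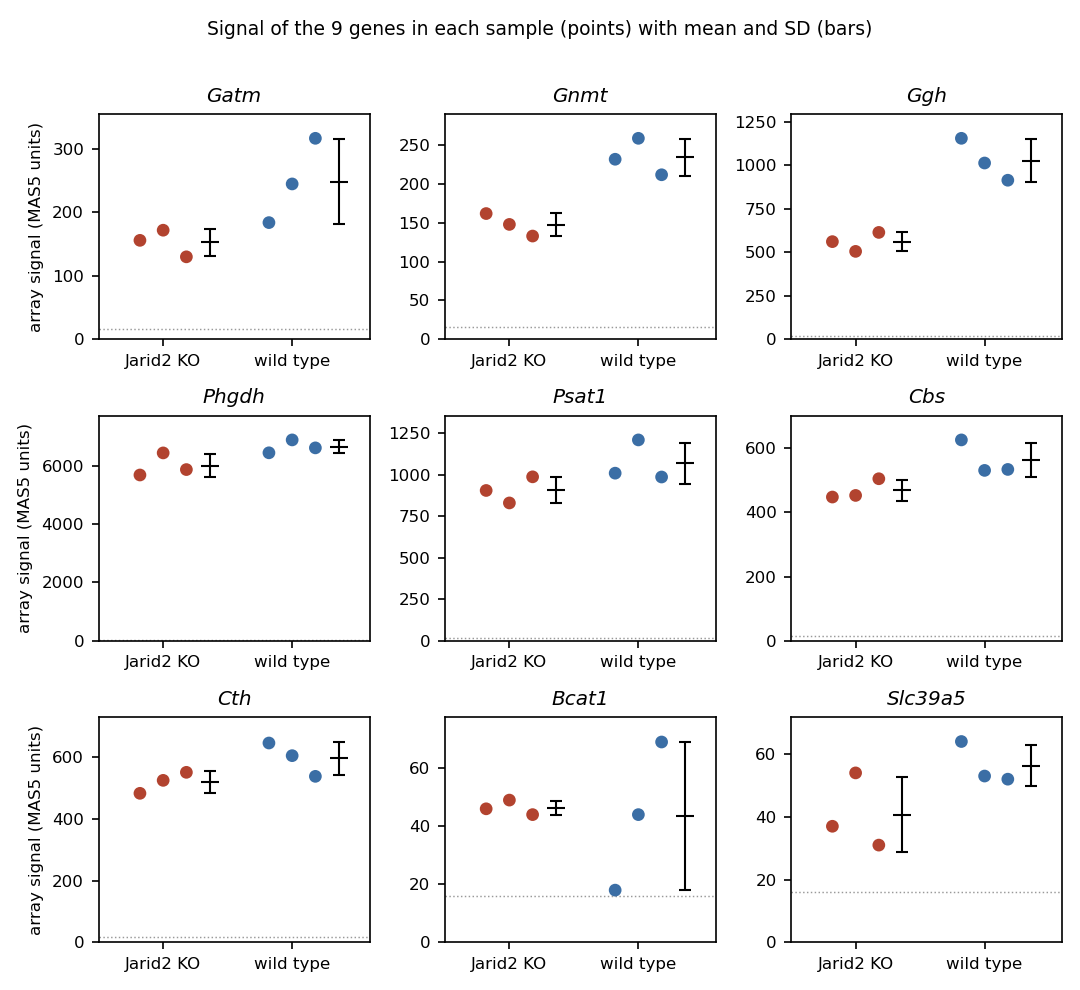
Signal of the brightest probe set of each of the 9 genes (y axis, linear MAS5 units from 0) in the 3 Jarid2Δpanc samples (red, left, labelled Jarid2 KO) and the 3 Jarid2WT samples (blue, right, labelled wild type). Each point is 1 sample in the order of replicates 1 to 3, the bars are mean and SD (n = 3 each), and the dotted line is the floor of 16. The red points lie below all blue points for *Gatm*, *Gnmt*, *Ggh*, *Phgdh* and *Cbs* and overlap them for the other 4 genes.

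Transcripts of other kinds also differed between the samples. *Jarid2* itself had signals of 392, 398 and 355 in Jarid2Δpanc samples, against 335, 301 and 415 in Jarid2WT samples, so the probe set of highest signal did not separate the genotypes. Whether its probes lie in the deleted part of the gene is not given in the sources used here. By quantitative PCR, the study reports lower expression of the deleted exon in knockout pancreases than in controls of the same age. The signals above therefore do not show whether the deletion took place in the array samples. *Xist*, the RNA of the inactive X chromosome, had 4197 to 4905 in the 3 Jarid2Δpanc samples, and 24, 12 and 4390 in Jarid2WT replicates 1, 2 and 3, so that only the third control resembled the Jarid2Δpanc samples. The Y-linked *Eif2s3y* had 7, 5 and 13 in Jarid2Δpanc samples, against 560, 506 and 9 in Jarid2WT replicates 1, 2 and 3. Sex is not given in the labels. By these transcripts it is partly confounded with genotype, and only Jarid2WT replicate 3 matched the Jarid2Δpanc samples. Acinar transcripts, as the summed signal of 18 measured marker genes, were at 62847 to 74870 in Jarid2Δpanc samples, against 80266 to 93681 in Jarid2WT samples, and 9 of the 18 lay below all controls, as did 5.64% of all genes. Of their fold changes 17 were negative, but they were uneven, from -2.12 for *Cela2a* to 0.01 for *Nr5a2*. The bright *Cpa1*, *Ctrb1* and *Pnliprp1* had -0.07, -0.07 and -0.14 and overlapped between the groups. In whole tissue, fewer acinar cells and less RNA per acinar cell cannot be told apart. Liver transcripts (12 measured genes, 4 of them at a mean log2 signal of 7 or more) were uneven. *Alb* had 790 in Jarid2Δpanc replicate 3 and 751 in Jarid2WT replicate 2, against 47 to 137 in the other 4 samples. *Afp* had 1736 and 1917 in the same 2 samples, against 479 to 726. The bright *Vtn* and *Ambp* ranged only from 1162 to 1497 and from 2802 to 3778 over all 6 samples. In Jarid2Δpanc replicate 3, *Ambp* (3329) lay below all controls. Skeletal muscle transcripts (9 genes) summed to 282 to 322 in Jarid2Δpanc samples, and to 221, 238 and 12211 in Jarid2WT replicates 1, 2 and 3. Macrophage and neutrophil transcripts summed to 5758 in Jarid2Δpanc replicate 1, against 1910 to 2848 in the other 5 samples. In that sample the neutrophil gene *S100a8* had 1425, against 113 to 269 in the others. Macrophage genes were mixed there. *Csf1r* was highest at 1133, *Adgre1* had 189, against 197 and 202 in Jarid2Δpanc replicates 2 and 3, and *C1qa* (415) lay below all controls. The part of these differences in the values of the 9 genes was not tested.

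Both glycine-consuming enzymes were lower in all Jarid2Δpanc samples. *Gatm* encodes glycine amidinotransferase, which joins glycine to the amidino group of arginine in the first step of creatine synthesis. It had signals of 156, 172 and 130 in Jarid2Δpanc replicates 1 to 3, against 184, 245 and 317 in Jarid2WT replicates 1 to 3. The groups did not overlap, but the highest Jarid2Δpanc sample and the lowest control were only 12 units apart, and the mean ± SD was 153 ± 21.2 in Jarid2Δpanc samples and 249 ± 66.6 in Jarid2WT samples (n = 3 each). The log2 fold change was -0.68 (standard error 0.24). The highest *Gatm* signal came from Jarid2WT replicate 3, the control with skeletal muscle transcripts. Without that sample the fold change was -0.49, and both other controls still lay above all Jarid2Δpanc samples. Among 6 measured genes of kidney, an organ known for *Gatm*, 5 had signals of at most 35 in any sample. The sixth, *Nphs1*, named after its values were seen, had 155, 160 and 165 in Jarid2Δpanc samples, against 196, 185 and 170 in Jarid2WT samples, and thus also lay below all controls. Its relation to the *Gatm* values was not tested.

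*Gnmt* encodes glycine N-methyltransferase, a folate-binding enzyme that passes a methyl group from S-adenosylmethionine to glycine. Its signals were 162, 148 and 133 in Jarid2Δpanc samples, against 232, 259 and 212 in Jarid2WT samples. The lowest control stood 50 units above the highest Jarid2Δpanc sample, and the SD was 9.82% of the mean in Jarid2Δpanc and 10.1% in Jarid2WT samples. The fold change was -0.67 (standard error 0.11), and leaving out any 1 sample gave -0.74 to -0.59. *Gnmt* is known as an abundant liver enzyme, and the relation of its values to the liver transcripts was not tested. Its level was lowest in Jarid2Δpanc replicate 3, which had high *Alb*, and highest in Jarid2WT replicate 2, which also had high *Alb*. Without both samples the fold change was -0.52, with 162 and 148 in Jarid2Δpanc samples against 232 and 212 in Jarid2WT samples.

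The promoters of *Gatm* and *Gnmt* are shown because these genes, with *Ggh*, had the most negative fold changes, and those of *Phgdh* and *Cbs* because they head the pathways to serine and cysteine. RefSeq (GRCm38.p6) gave 10 promoters for 7 of the 9 genes, each of 250 bases before and 50 bases after the start, and *Ggh* and *Cth* had no entry in the table. Capitals mark CCAAT, the box bound by NF-Y, on either strand (ATTGG on the other strand). All 4 lie on the minus strand, at chr2:122611228-122611527 for *Gatm*, chr17:46729116-46729415 for *Gnmt*, chr3:98339920-98340219 for *Phgdh* and chr17:31637156-31637455 for *Cbs*.
Gatm: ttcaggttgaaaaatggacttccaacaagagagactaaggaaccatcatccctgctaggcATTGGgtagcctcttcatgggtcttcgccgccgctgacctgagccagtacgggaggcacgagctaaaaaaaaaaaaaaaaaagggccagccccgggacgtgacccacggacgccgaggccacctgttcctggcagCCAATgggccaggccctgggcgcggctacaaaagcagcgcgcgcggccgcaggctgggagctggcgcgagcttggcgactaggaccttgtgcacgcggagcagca
Gnmt: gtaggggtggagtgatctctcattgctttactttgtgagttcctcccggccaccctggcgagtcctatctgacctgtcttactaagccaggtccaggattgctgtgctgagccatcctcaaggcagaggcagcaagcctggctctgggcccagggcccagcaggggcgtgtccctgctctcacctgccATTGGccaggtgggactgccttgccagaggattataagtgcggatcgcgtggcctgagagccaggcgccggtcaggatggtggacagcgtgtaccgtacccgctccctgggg
Phgdh: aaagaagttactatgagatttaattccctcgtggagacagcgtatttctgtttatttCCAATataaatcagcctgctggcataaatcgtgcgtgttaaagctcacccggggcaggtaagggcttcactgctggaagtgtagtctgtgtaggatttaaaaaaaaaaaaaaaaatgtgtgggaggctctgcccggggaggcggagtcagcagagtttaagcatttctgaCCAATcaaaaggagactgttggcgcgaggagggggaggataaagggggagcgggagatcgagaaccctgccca
Cbs: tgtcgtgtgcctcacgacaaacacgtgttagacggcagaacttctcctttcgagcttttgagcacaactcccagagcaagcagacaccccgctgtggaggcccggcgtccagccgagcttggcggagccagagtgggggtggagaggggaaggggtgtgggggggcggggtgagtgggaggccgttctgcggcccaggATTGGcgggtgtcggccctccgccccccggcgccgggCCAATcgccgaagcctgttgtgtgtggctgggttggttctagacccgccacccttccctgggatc
In these 4 promoters the CCAAT letters nearest to the start began 55 bases before it in *Gatm*, 62 in *Gnmt*, 23 in *Phgdh* and 15 in *Cbs*. CCAAT was searched after the sequences had been seen, and 6 of the 10 promoters held it, against 37.4% of 32851 promoters of the same length in the table. The composite element of ATF4 (TGATGNAA), the factor known for inducing serine and asparagine synthesis genes, was in 0 of the 10 promoters and in 3.97% of all. The letters of the acinar factor Nr5a2 (CAAGGTCA) were in 0 of the 10 and in 1.56% of all. Those of Rbpj and Rbpjl (TGGGAA), partners of the acinar factor Ptf1a, were in 3 of the 10 and in 25.6% of all. All motifs were searched on both strands, no match of one overlapped a match of another, and a match or its absence is a description of these windows only.

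*Ggh*, gamma-glutamyl hydrolase, removes the glutamate tail from stored folates in lysosomes and so favours their release from the cell. It had signals of 561, 505 and 614 in Jarid2Δpanc samples, against 1155, 1013 and 914 in Jarid2WT samples. Each Jarid2Δpanc sample was at least 300 units below each control, and the means were 560 ± 54.5 in Jarid2Δpanc samples and 1027 ± 121 in Jarid2WT samples (SD, n = 3 each). The fold change of -0.87 (standard error 0.12) was the most negative of the 9, and leaving out 1 sample at a time gave -0.95 to -0.79. The liver-rich Jarid2Δpanc replicate 3 was the highest of its group and the muscle-rich Jarid2WT replicate 3 the lowest control. Without Jarid2Δpanc replicate 3 and Jarid2WT replicate 2, the samples with liver transcripts, the fold change was -0.95.

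Both measured enzymes of serine synthesis that belong to the 9 genes had small negative fold changes. *Phgdh* encodes phosphoglycerate dehydrogenase, which starts serine synthesis. Its brightest probe set had 5686, 6443 and 5872 in Jarid2Δpanc samples, against 6447, 6889 and 6616 in Jarid2WT samples. The groups did not overlap, but Jarid2Δpanc replicate 2 and Jarid2WT replicate 1 were only 4 units apart. This is far less than the SD of 394 among Jarid2Δpanc samples. The fold change was -0.15 (standard error 0.06), and leaving out 1 sample at a time gave -0.20 to -0.11. The other single-gene probe sets of *Phgdh* gave -0.20, -0.26 and -0.09, and in 1 of these 3 all Jarid2Δpanc samples were below all controls. All 4 carry the suffix x, which the manufacturer uses where probes can bind other transcripts as well, and 2 further probe sets are annotated both to *Phgdh* and to the predicted genes *Gm8096* or *Gm6756*, with -0.14 and -0.18. The *Phgdh* values may therefore include signal of such copies.

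*Psat1*, phosphoserine aminotransferase, carries out the next step. It had 904, 829 and 986 in Jarid2Δpanc samples, against 1008, 1208 and 985 in Jarid2WT samples. Jarid2Δpanc replicate 3 exceeded Jarid2WT replicate 3 by 1 unit, and the fold change was -0.23 (standard error 0.11). Without Jarid2WT replicate 2, the liver-rich control with the highest *Psat1* signal, it was -0.14. The second probe set of *Psat1* had 790, 594 and 683 in Jarid2Δpanc samples, against 683, 655 and 888 in Jarid2WT samples, a fold change of -0.10 (standard error 0.17) with fully overlapping groups.

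*Cbs* and *Cth* act in sequence in transsulfuration. *Cbs*, cystathionine beta-synthase, condenses serine with homocysteine, and it had 448, 453 and 505 in Jarid2Δpanc samples, against 626, 531 and 534 in Jarid2WT samples. The groups were 26 units apart, and the fold change was -0.26 (standard error 0.09), with -0.32 to -0.19 when 1 sample at a time was left out. The dimmer second probe set of *Cbs* gave 132, 151 and 158 in Jarid2Δpanc samples, against 155, 179 and 187 in Jarid2WT samples, a fold change of -0.24 (standard error 0.11) in which Jarid2Δpanc replicate 3 passed Jarid2WT replicate 1. *Cth*, cystathionine gamma-lyase, releases cysteine from the product. Its signals of 483, 525 and 551 in Jarid2Δpanc samples, against 646, 605 and 538 in Jarid2WT samples, overlapped through the third replicate of each group. The fold change of *Cth* was -0.20 (standard error 0.09), and with Jarid2WT replicate 3 as the lone control it was -0.05.

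*Bcat1* was the exception among the 9. It encodes the cytosolic aminotransferase that starts the breakdown of leucine, isoleucine and valine. The brightest probe set had 46, 49 and 44 in Jarid2Δpanc samples, against 18, 44 and 69 in Jarid2WT samples. The Jarid2Δpanc samples were tightly grouped inside the range of the controls, whose lowest was near the floor of 16. The fold change was 0.29 with a standard error of 0.53, and its sign depended on the controls used, with 0.72 without Jarid2WT replicate 3, -0.25 without Jarid2WT replicate 1 and -0.58 against Jarid2WT replicate 3 alone. The second probe set, with 38, 46 and 35 in Jarid2Δpanc samples against 33, 41 and 42 in Jarid2WT samples, gave 0.04 (standard error 0.15), and the third was under 16 on 5 of the 6 arrays. Mesenchyme transcripts (7 genes) followed the same order among the controls, with summed signals of 27525, 28691 and 33227 in Jarid2WT replicates 1, 2 and 3. In Jarid2Δpanc replicates 1, 2 and 3 they had 30087, 34787 and 31268, an order unlike that of *Bcat1*. Skeletal muscle transcripts shared the order of the controls as well. The relation of either list to the *Bcat1* values was not tested.

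*Slc39a5*, which encodes the zinc importer ZIP5 of the basolateral membrane of acinar and intestinal cells in mice, was dim. It had 37, 54 and 31 in Jarid2Δpanc samples, against 64, 53 and 52 in Jarid2WT samples, with Jarid2Δpanc replicate 2 above 2 of the 3 controls. The fold change was -0.50 (standard error 0.24), -0.73 without Jarid2Δpanc replicate 2, -0.33 without Jarid2Δpanc replicate 3 and 0 with the floor raised to 64. Its promoters are shown because they held 3 of the 4 TGGGAA matches, which stand in capitals (TTCCCA on the other strand), at chr10:128401175-128401474 and chr10:128400417-128400716, both on the minus strand.
Slc39a5 start A: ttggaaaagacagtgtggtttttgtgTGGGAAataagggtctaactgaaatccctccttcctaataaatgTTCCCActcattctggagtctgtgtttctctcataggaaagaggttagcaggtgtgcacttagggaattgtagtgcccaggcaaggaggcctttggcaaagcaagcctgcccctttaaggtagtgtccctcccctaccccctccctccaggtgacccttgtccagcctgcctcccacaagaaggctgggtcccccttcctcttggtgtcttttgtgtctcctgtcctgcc
Slc39a5 start B: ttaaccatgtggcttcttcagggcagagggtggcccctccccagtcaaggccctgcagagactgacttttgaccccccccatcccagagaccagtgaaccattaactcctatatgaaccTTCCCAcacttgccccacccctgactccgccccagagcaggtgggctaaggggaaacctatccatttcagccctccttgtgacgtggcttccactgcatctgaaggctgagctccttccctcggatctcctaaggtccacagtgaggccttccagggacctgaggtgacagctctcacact
The match nearest to a start began 131 bases before it at start B, and the 2 at start A began 224 and 180 bases before it.

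**Figure D2:**
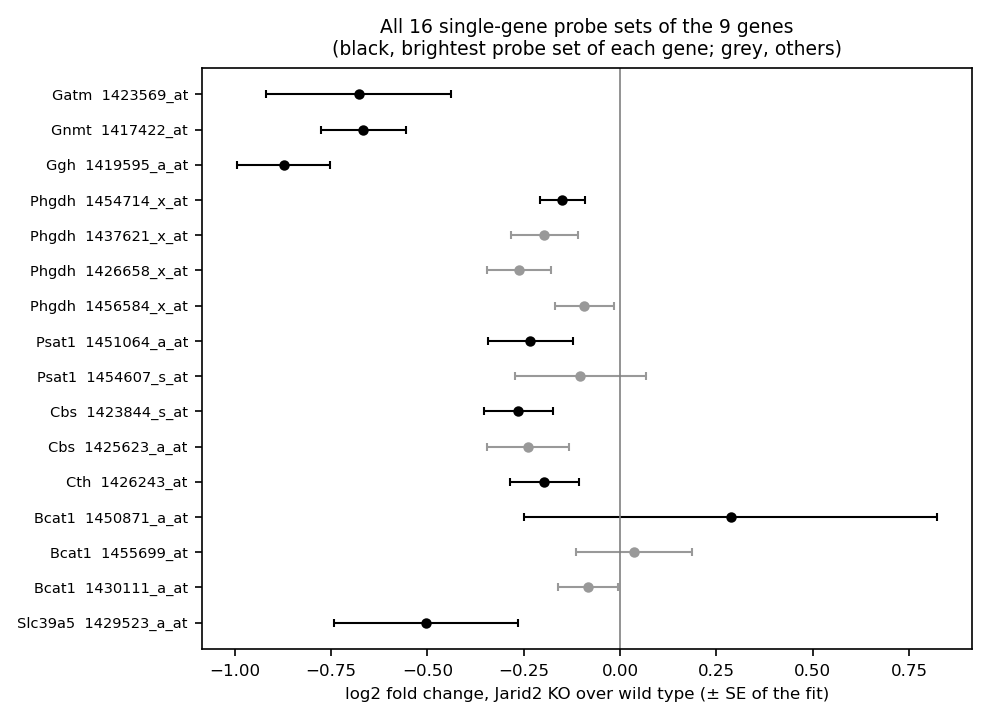
Log2 fold change (x axis, Jarid2Δpanc over Jarid2WT, ± standard error of the limma fit, n = 3 each) of all 16 single-gene probe sets of the 9 genes (y axis). Black marks the brightest probe set of a gene and grey the others. 14 of the 16 points lie left of 0, and the 2 to the right belong to *Bcat1*, where the widest error also lies.

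With any 1 sample left out, the fold changes of the 8 genes other than *Bcat1* stayed negative. Without Jarid2Δpanc replicate 1, the sample with high neutrophil transcripts, they ranged from -0.88 for *Ggh* to -0.11 for *Phgdh*, and *Bcat1* had 0.29. Against Jarid2WT replicate 3 alone, the control that resembled the Jarid2Δpanc samples in *Xist*, the fold changes were -1.06 for *Gatm*, -0.71 for *Ggh*, -0.53 for *Gnmt*, -0.19 for *Cbs*, -0.14 for *Phgdh* and -0.12 for *Psat1*. In this setting the whole reference is 1 sample, which also held the muscle transcripts. Without the 2 liver-rich samples, an alternative chosen after the data were seen, the median of the 9 was -0.36 and 7 of the 9 had both Jarid2Δpanc samples below both controls, with fewer samples to separate.

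**Figure D3:**
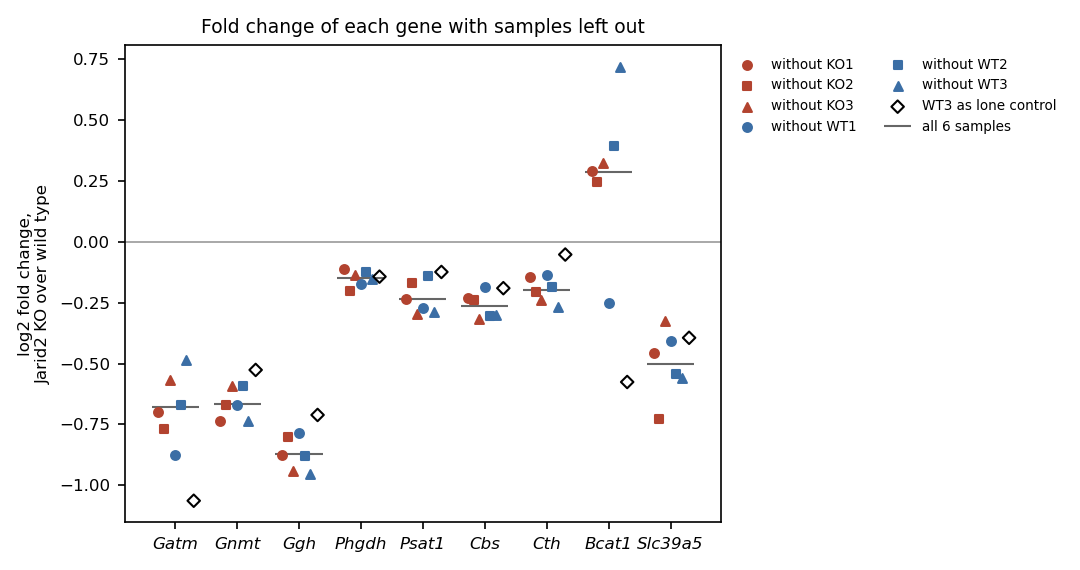
Log2 fold change of each of the 9 genes (y axis, Jarid2Δpanc over Jarid2WT) when 1 sample was left out (red, Jarid2Δpanc; blue, Jarid2WT; circle, square and triangle for replicates 1, 2 and 3) and with Jarid2WT replicate 3 as the lone control (open diamonds). Grey lines give the value over all 6 samples. The points of *Bcat1* span -0.58 to 0.72 on both sides of 0, while those of the other 8 genes stay below 0.

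Per sample, the mean of the 9 genes relative to the Jarid2WT mean was -0.38, -0.31 and -0.40 in Jarid2Δpanc replicates 1 to 3, against -0.11, 0.05 and 0.06 in Jarid2WT replicates 1 to 3. The acinar markers on the same log2 scale were at -0.58, -0.59 and -0.70 in Jarid2Δpanc samples, against -0.08, 0.25 and -0.17 in Jarid2WT samples. Both sets were lower in all 3 Jarid2Δpanc samples than in any control, while the order of the samples within the groups was not the same. The endocrine markers had -0.74, -0.53 and -0.52 in Jarid2Δpanc samples, against -0.03, 0.08 and -0.05 in Jarid2WT samples. Their genes were uneven, and 5 of the 8 lay below all controls, as did 5.64% of all genes. Fold changes ran from -1.10 for *Iapp* to -0.12 for *Chga*. *Chga*, *Chgb* (-0.23) and *Neurog3* (-0.20) overlapped between the groups. The liver list was at 0.84 in both Jarid2Δpanc replicate 3 and Jarid2WT replicate 2 and at -0.29 or lower in the other 4 samples. Proliferation transcripts (5 measured genes) summed to 9789 to 10188 in Jarid2Δpanc samples, against 9394 to 9501 in Jarid2WT samples. Of these genes, *Mki67* (0.17) and *Top2a* (0.16) lay above all controls, as did 5.71% of all genes. *Cdk1* (0.09), *Mcm2* (0.03) and *Mcm5* (-0.06) overlapped between the groups.

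**Figure D4:**
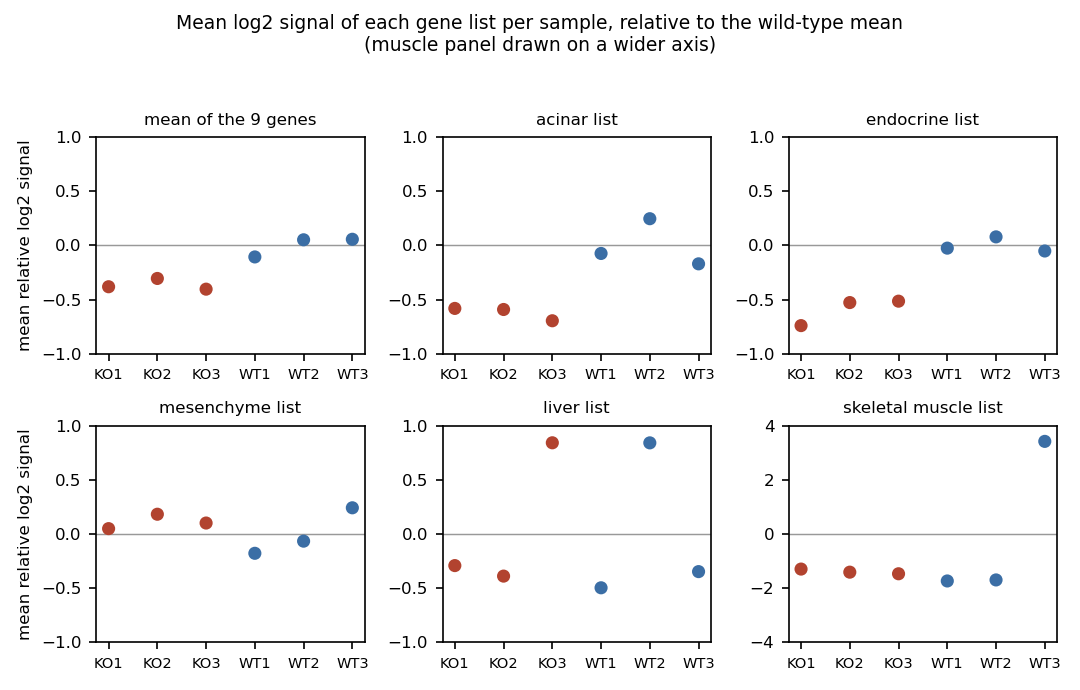
Mean log2 signal per sample (y axis, relative to the mean of the 3 Jarid2WT samples) for the 9 genes and for 5 marker lists, with Jarid2Δpanc samples (red, KO) left of Jarid2WT samples (blue, WT). The 9 genes, the acinar list and the endocrine list are lower in all Jarid2Δpanc samples, the liver list is high in KO3 and WT2, and the muscle list, on a wider axis, is high in WT3 alone.

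The wider pathways were followed in 8 lists of 121 related genes that do not include the 9, of which 113 were measured. These lists were drawn up by function with earlier results of the data known. With limma, 0 of the 113 passed an adjusted p of 0.05 in either direction, and the lowest adjusted p was 0.221, for *Mt1*. With trended and robust variances and the dimmest 40% of genes left out, 92 of them could be fitted and only *Gamt* passed, in the lower direction, where that fit called 0.495% of 10917 genes lower and 0.0916% higher. At an unadjusted p of 0.05 in the fit over all genes, 18 of the 113 were lower and 4 higher, against the shares of 4.44% and 4.37% among all genes. All Jarid2Δpanc samples lay below all controls for 18 genes (15.9%) and above them for 5 (4.43%), against 5.64% and 5.71% of all genes. The median fold change was -0.06, with 72 of 113 negative.

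In serine and glycine metabolism (7 measured), *Psph*, the phosphatase of the last step to serine, had 405, 379 and 341 in Jarid2Δpanc samples, against 459, 487 and 421 in Jarid2WT samples, a fold change of -0.28 (standard error 0.09). The serine hydroxymethyltransferase *Shmt1* had 0.13 (standard error 0.07) and the glycine cleavage component *Gcsh* -0.05 (standard error 0.07), so that the list was not of 1 direction and its median was -0.05. In the folate list (18 measured), *Mthfd2*, a mitochondrial enzyme of the folate cycle, had 170, 170 and 198 in Jarid2Δpanc samples, against 233, 298 and 256 in Jarid2WT samples, a fold change of -0.55 (standard error 0.12). The cytosolic counterpart *Mthfd1* had -0.14 (standard error 0.08), the purine synthesis enzyme *Atic* 0.05 (standard error 0.06), and the formyltransferase *Mtfmt* 0.20 (standard error 0.13). Those 3 genes overlapped between the groups, and the median of the folate list was -0.04. In that list 2 genes lay below all controls and 1 above, against 5.64% and 5.71% of all genes.

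In the methionine list (13 measured, median -0.05), *Mat1a*, which makes S-adenosylmethionine, had 152, 180 and 170 in Jarid2Δpanc samples, against 226, 246 and 220 in Jarid2WT samples, a fold change of -0.46 (standard error 0.08). *Ahcy*, which clears the product of methyl transfer, and its relative *Ahcyl1* had 0.12 and -0.06 (standard errors 0.08 and 0.04). *Mat1a*, like *Gnmt*, is known from liver. Of the samples with liver transcripts, Jarid2Δpanc replicate 3 was between the other Jarid2Δpanc samples and Jarid2WT replicate 2 had the highest *Mat1a* signal of all 6. In the cysteine and glutathione list (14 measured, median -0.11), none was separated, and *Tst*, *Gsr*, *Cdo1* and *Gclc* ranged from -0.27 to 0.17.

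*Gamt*, the methyltransferase that completes creatine synthesis after *Gatm*, had 1305, 1263 and 1383 in Jarid2Δpanc samples, against 1602, 1712 and 1754 in Jarid2WT samples. The groups were 219 units apart, and the fold change was -0.36 (standard error 0.05, adjusted p = 0.251 from limma). The creatine transporter *Slc6a8* had 0.14 (standard error 0.24) and the brain-type kinase *Ckb* -0.25 (standard error 0.10). The median of -0.53 over the 6 genes of this list includes the muscle kinase *Ckm*, at 39, 50 and 16 in Jarid2Δpanc samples and at 31, 29 and 749 in Jarid2WT samples, where the single high value came from the muscle-rich control. It also includes *Ckmt1* (-0.70) and *Ckmt2* (-0.75), which lay around the floor of 16. *Ckmt1* had 13, 4 and 31 in Jarid2Δpanc samples, against 24, 42 and 34 in Jarid2WT samples. *Ckmt2* had 1, 4 and 6, against 9, 13 and 76, again highest in the muscle-rich control.

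Among branched-chain amino acid genes (17 measured, median -0.13), 15 fold changes were negative, and 5 genes lay below all controls, a separation found for 5.64% of all genes. *Hibch*, a hydrolase of valine breakdown, had 214, 207 and 221 in Jarid2Δpanc samples, against 262, 298 and 293 in Jarid2WT samples, a fold change of -0.41 (standard error 0.06). *Hibadh*, the next enzyme, had -0.05 (standard error 0.02), the leucine transporter *Slc7a5* -0.19 (standard error 0.09) and the transporter *Slc43a1* 0.28 (standard error 0.19). Both transporters overlapped between the groups.

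In zinc transport and storage (26 measured, median -0.06), 6 genes lay below all controls and 1 above, against 5.64% and 5.71% of all genes. The metallothionein *Mt1* had 4994, 5088 and 5340 in Jarid2Δpanc samples, against 6146, 6312 and 6139 in Jarid2WT samples, a fold change of -0.27 (standard error 0.03), and *Mt2* had -0.24 (standard error 0.09). The zinc exporter *Slc30a4* had -0.32 (standard error 0.07) and the importer *Slc39a10* 0.17 (standard error 0.06), so that transporters were found on both sides of 0. Among other genes of amino acid synthesis (12 measured, median -0.02), asparagine synthetase *Asns* had 1498, 1212 and 1463 in Jarid2Δpanc samples, against 1913, 2190 and 1584 in Jarid2WT samples, a fold change of -0.44 (standard error 0.16). The proline and ornithine pathway gene *Aldh18a1* had -0.17 (standard error 0.03). The alanine aminotransferase *Gpt2* was separated in the other direction, with 474, 441 and 544 in Jarid2Δpanc samples against 403, 335 and 317 in Jarid2WT samples and a fold change of 0.47 (standard error 0.13).

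**Figure D5:**
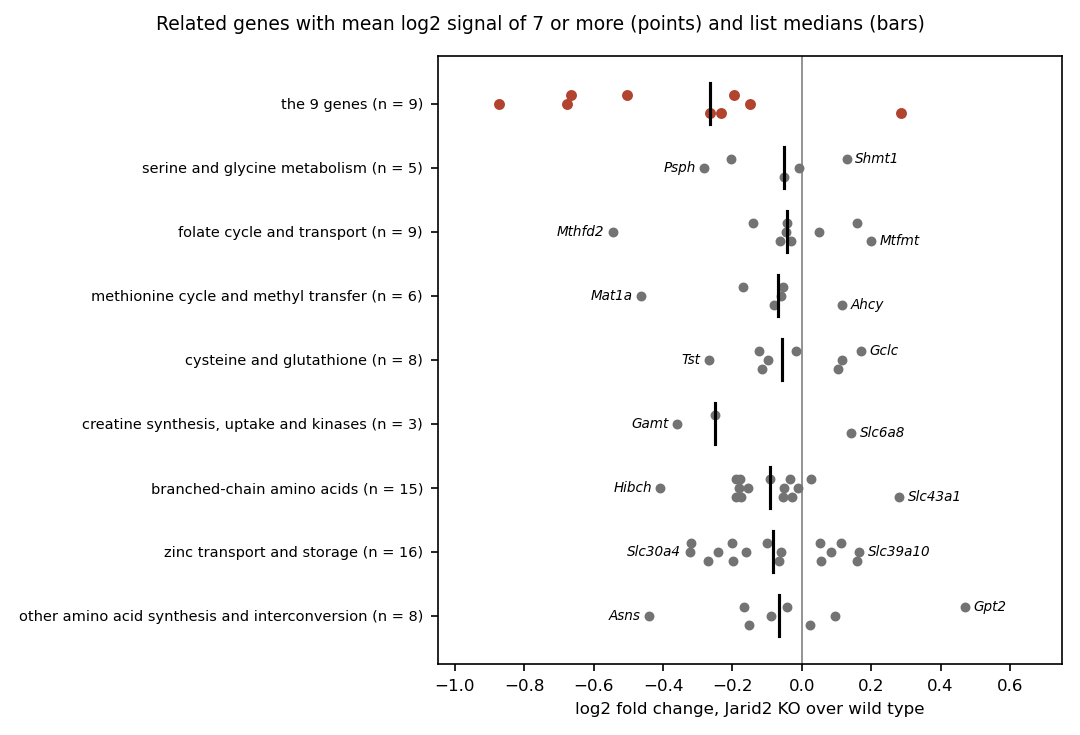
Log2 fold change (x axis, Jarid2Δpanc over Jarid2WT, n = 3 each) of the 9 genes (red) and of the related genes in 8 lists with a mean log2 signal of 7 or more (grey, 70 genes), with the median of the points shown in each row as a bar and the lowest and highest gene of each list named. The 9 genes have a median of -0.26, and each list holds points on both sides of 0.

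The genes whose levels resembled those of *Gatm*, *Gnmt* and *Bcat1* most were sought by Pearson correlation of log2 signals over the 6 samples, among 7657 genes with a mean log2 signal of 7 or more. With 6 points from 2 groups the correlations are high by construction of the ranking and carry no test. *Gatm* was most like *1700017B05Rik* (0.976), *Cwc15* (0.973) and *Dhrs3* (0.966), and 13 genes exceeded 0.95. *Gnmt* was most like *Map3k4* (0.999), *Rtcb* (0.996) and *Gfpt1* (0.995), and 81 genes exceeded 0.95. *Bcat1* was most like *Adamts12* (0.991), *Col14a1* (0.990) and *2610008E11Rik* (0.978), and 14 genes exceeded 0.95. The 6 genes nearest to *Gatm* and *Gnmt* had fold changes from -0.29 to -0.15, smaller in size than those of *Gatm* and *Gnmt*, while the 3 nearest to *Bcat1* had 0.02 to 0.13.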

How the data were processed

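RNA of e15.5 pancreases (Jarid2Δpanc and Jarid2WT, 3 samples each) went through 2 cycles of cDNA synthesis, starting with 50 ng, before hybridization to Affymetrix Mouse Genome arrays. The authors deposited linear intensities for 45101 probe sets, which the submitters' notes credit to MAS5 (version not given). They are whole numbers, and every array has a mean of 150 once 2% is trimmed from either end. RMA, named in the study's methods, was not used here. In the labels, a description of islets in glucose contradicts the title, tissue and age, and these last were followed.

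A floor of 16 was applied before log2. The brightest of the probe sets with 1 gene symbol (34958 in all) stood for each of 18194 genes. limma 3.58.1 (R 4.3.3), tested on simulated data, was used with lmFit and eBayes, which left 4 residual and 0.61 prior degrees of freedom, and p-values were adjusted by Benjamini-Hochberg over all genes. Per array, 26.5% to 29.0% of probe sets were under the floor, and 3 arrays per group limit the precision. Whether samples of a group come from separate litters is not given in the sources used here, so errors cover only the spread between these samples. The 9 genes, lists, motifs and markers were chosen with earlier results of these data known. From each related list the text names members past the threshold (there were none), or else the 2 with the highest mean and the lowest and highest fold change at a mean log2 signal of 7 or more. *Ckm*, *Ckmt1*, *Ckmt2*, *Nphs1* and the other markers named singly were added after their values were seen. List genes without a single-gene probe set were not analysed here. Alternatives covered samples left out, the replicate block, normalization, floor, filters, variance model and choice of probe set.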

Additional observations from a re-analysis of the deposited data

How the results depend on the processing

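No gene passed in the fit as reported, and the counts over all genes depended on the setting: leaving out 1 sample gave 0 to 8 genes lower (8 without Jarid2WT replicate 2) and 0 to 4 higher (4 without Jarid2Δpanc replicate 3), quantile normalization gave 2 lower and 1 higher, each probe set on its own 1 higher, and trended and robust variances with the dimmest 40% left out 54 lower and 10 higher. The 54 were 0.495% of the 10917 genes fitted and included *Gnmt* and *Ggh*, 2 of the 8 described genes that could be fitted, from which nothing is read since the genes were selected on this comparison; the 8 lower without Jarid2WT replicate 2 included 0 of the 9. The cause of the shifts was not tested. The median of the 9 was -0.39 with Jarid2WT replicate 3 as the lone control, -0.36 without the 2 liver-rich samples, and -0.38 in both fits with the dimmest 40% left out, which drop *Bcat1*. The number of the 9 below all controls was 5 to 7 in all settings, and the number above was 0. With the replicate block the median was -0.26 and 0 genes were called. Deviations of same-numbered samples correlated at -0.02, -0.01 and -0.02. The study describes the e15.5 controls as littermates. These correlations cannot decide whether same-numbered samples share a litter or a processing step. *Bcat1* was negative in 3 of 15 settings, *Slc39a5* was 0 at a floor of 64, and the other 7 stayed negative in all 17, with *Phgdh* at -0.07 under quantile normalization. *Bcat1* and *Slc39a5* lie near the floor, and 3 samples per group limit all values.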
